A study of Homo sapiens with 4 samples.

Results

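The aryl hydrocarbon receptor (AHR) and 6 genes tied to it, AHR, ARNT, AHRR, TIPARP, CYP1A1, CYP1A2 and CYP1B1, were followed in triple-negative breast cancer (TNBC) cells given mebendazole (MBZ), a benzimidazole anthelmintic. The genes are 7 of the 58735 in the count table and were picked by symbol, as benzimidazoles can activate AHR. RNA was taken from MDA-MB-231 and SUM159 cells, both established human TNBC lines, after 72 h with 1 µM MBZ or with the DMSO vehicle. There was 1 library for each of the 4 groups, MDA-MB-231 DMSO, MDA-MB-231 MBZ, SUM159 DMSO and SUM159 MBZ, so no difference within a line has a replicate check. Total counts were 24897586, 17143139, 18708179 and 18904501 in that order.

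AHR is a ligand-activated transcription factor of the bHLH-PAS family. Without ligand it sits in the cytoplasm with HSP90 and the p23 co-chaperone, and with ligand it enters the nucleus, pairs with ARNT and binds the xenobiotic response element. Its best known targets are the cytochrome P450 genes of the CYP1 family, which oxidize polycyclic aromatic compounds and estrogens, and 2 of its targets, AHRR and TIPARP, act back on it as repressors. CYP1B1 is known for expression in many tumors, while CYP1A2 is mainly a liver enzyme.

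CYP1A1 was about 4-fold higher after MBZ in both lines. CYP1B1 was 5.98-fold higher after MBZ in MDA-MB-231 cells but 3.77-fold lower in SUM159 cells. AHR and AHRR were also higher after MBZ in MDA-MB-231 and lower in SUM159. TIPARP was more than 1.5-fold higher in MDA-MB-231 and short of a 1.5-fold difference in SUM159. ARNT stayed under a 1.5-fold difference in both lines. Opposite signs in the lines, with counting intervals clear of 0 in both, were thus seen in 3 of the 6 genes compared, against 20.0% of the 13733 genes that averaged 10 counts or more in both lines, a description with no test. CYP1A2 was at or near 0 counts in all 4 libraries. A difference was called when the fold was at least 1.5 in a gene whose counts averaged 10 or more within the line, and 6 of the 7 genes had enough counts in each line. In MDA-MB-231 cells 5 of these 6 genes were called higher and 0 lower, where 18.3% of the 15142 genes compared were called higher and 15.8% lower. In SUM159 cells 1 of 6 was called higher and 3 lower, where 21.5% of 15674 genes were called higher and 21.7% lower. The median log2 fold change of the 6 genes was 1.12 in MDA-MB-231 and -0.67 in SUM159, against -0.02 and -0.03 over all genes compared. Fold changes used TMM scaling, which assumes that most genes are unchanged. Scaling by total counts alone raised the median of all genes by 0.27 (log2) in MDA-MB-231 and 0.30 in SUM159 and moved the share of calls that were higher from 53.7% to 79.4% and from 49.8% to 71.9%, and under it AHR in SUM159 was no longer called, at -0.54.

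**Figure D1:**
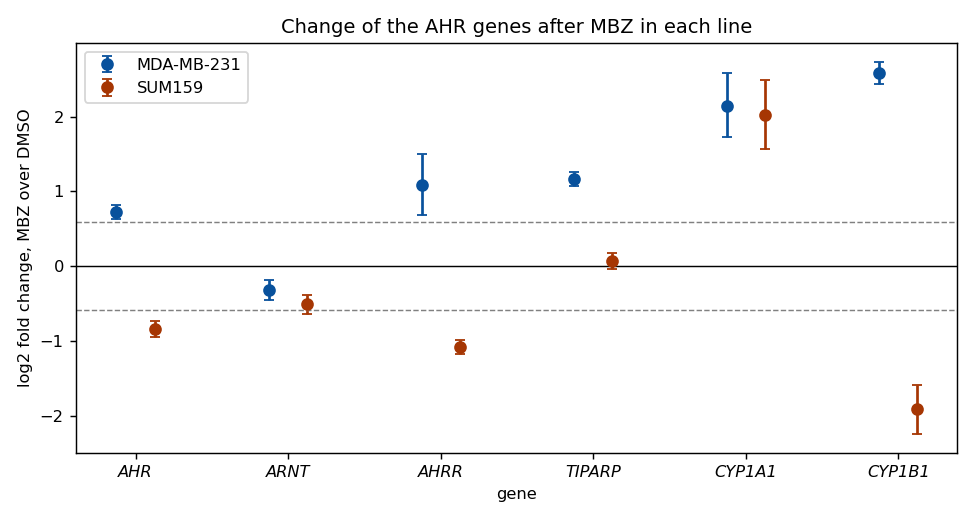
Log2 fold change of MBZ over DMSO (y axis) for the 6 genes compared (x axis), in MDA-MB-231 (blue) and SUM159 (brown). Bars are 95% counting intervals from 1 library per group and dashed lines mark a 1.5-fold difference. CYP1A1 lies near 2 in both lines, while AHR, AHRR and CYP1B1 lie above the upper line in MDA-MB-231 and below the lower line in SUM159.

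The receptor gene AHR (ENSG00000106546, chr7:16916359-17346152 on the plus strand of GRCh38, 11 exons in its canonical transcript) had 1818 counts in MDA-MB-231 DMSO, 2484 in MDA-MB-231 MBZ, 1654 in SUM159 DMSO and 1151 in SUM159 MBZ. As CPM, counts scaled to the depth of the library with TMM over the 4 libraries, these were 78.2, 130.7, 99.9 and 55.8. The highest library was thus MDA-MB-231 MBZ and the lowest SUM159 MBZ, with both DMSO libraries between them. The log2 fold change of MBZ over DMSO was 0.72 in MDA-MB-231 (95% interval 0.63 to 0.81) and -0.84 in SUM159 (-0.95 to -0.73), that is 1.65-fold higher and 1.79-fold lower. The intervals are exact binomial (Clopper-Pearson) intervals on the split of a gene's reads between the 2 libraries. They cover counting error only, not the spread between cultures, and reads copied by PCR are not independent molecules. Of the 6243 bases of the canonical AHR transcript, 2373 are also exon of a gene on the same strand, ENSG00000283321, which had 0, 1, 0 and 0 counts, and 270 are exon of ENSG00000237773 on the opposite strand, which had 11, 34, 7 and 5. Reads on shared bases may have been left out or assigned to either gene, so the level of AHR is uncertain while its libraries share the same counting.

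ARNT (ENSG00000143437, chr1:150809713-150876708, minus strand), the partner that AHR needs to bind DNA, had 1113, 737, 1065 and 931 counts in the same order of libraries, or 47.9, 38.8, 64.3 and 45.1 CPM. Both MBZ libraries were below the DMSO library of their line. The log2 fold change was -0.32 (-0.46 to -0.19) in MDA-MB-231 and -0.51 (-0.64 to -0.38) in SUM159, both short of a 1.5-fold difference.

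AHRR (ENSG00000063438, chr5:321714-438291, plus strand) encodes the AHR repressor, which competes with AHR for ARNT. It had 83, 146, 2600 and 1526 counts, or 3.57, 7.68, 157.0 and 73.99 CPM. The lines stood far apart: under DMSO the SUM159 library held 43.9-fold more AHRR than the MDA-MB-231 library (log2 ratio 5.46, 95% interval 5.14 to 5.79). After MBZ it was 2.12-fold higher in MDA-MB-231 (log2 1.09, 0.69 to 1.49) and 2.12-fold lower in SUM159 (-1.08, -1.18 to -0.99), so that the lines lay nearer to each other after MBZ. AHRR shares 5561 exonic bases with the readthrough gene PDCD6-AHRR, which has no row of its own in the counts used here, so reads of the 2 cannot be told apart.

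TIPARP (ENSG00000163659, chr3:156673235-156706770, plus strand) encodes an ADP-ribosyltransferase that represses AHR. It had 1381, 2555, 1200 and 1569 counts, or 59.4, 134.4, 72.4 and 76.1 CPM. The MDA-MB-231 MBZ library stood above the other three, which lay between 59.4 and 76.1 CPM. The log2 fold change was 1.16 (1.07 to 1.26) in MDA-MB-231, a 2.23-fold difference, and 0.07 (-0.04 to 0.18) in SUM159, an interval that includes 0. Under total counts alone the SUM159 value was 0.37, outside that interval but short of a 1.5-fold difference. The difference between the lines was not tested, as a test of it needs replicate libraries.

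CYP1A1 (ENSG00000140465, chr15:74719542-74725536, minus strand) encodes the P450 enzyme most used as a readout of AHR activity. It had 59 counts in MDA-MB-231 DMSO, 216 in MDA-MB-231 MBZ, 48 in SUM159 DMSO and 242 in SUM159 MBZ, or 2.54, 11.4, 2.90 and 11.7 CPM. Both MBZ libraries were above both DMSO libraries, and within each treatment the lines lay inside each other's counting intervals. The log2 fold change was 2.14 (1.72 to 2.59) in MDA-MB-231 and 2.02 (1.57 to 2.496) in SUM159, or 4.41-fold and 4.04-fold. Counted from the highest fold change, CYP1A1 ranked 285 of 15142 genes in MDA-MB-231 and 733 of 15674 in SUM159.

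CYP1A2 (ENSG00000140505, chr15:74748845-74756607, plus strand) lies head to head with CYP1A1, with 23308 bases between the bounds of the genes. It had 0, 0, 1 and 5 counts. A count of 0 allows up to 3 counts, which is 0.129 CPM in MDA-MB-231 DMSO and 0.158 CPM in MDA-MB-231 MBZ, and no fold change can be given there. In SUM159 the log2 ratio of 5 counts to 1 was 1.89 with an interval from -1.15 to 7.57, so a difference was not detectable at this depth. CYP1A1 and CYP1A2 share 0 stretches of 50 bases, so reads matching 1 of them in full over 50 bases do not match the other.

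CYP1B1 (ENSG00000138061, chr2:38066973-38109902, minus strand), a P450 enzyme that hydroxylates estradiol, had 453, 2245, 321 and 106 counts, or 19.5, 118.1, 19.4 and 5.14 CPM. The DMSO libraries of the lines were alike, with a log2 ratio of -0.01 (-0.22 to 0.20), and the MBZ libraries lay on opposite sides of them. The log2 fold change was 2.58 (2.44 to 2.73) in MDA-MB-231 and -1.91 (-2.25 to -1.59) in SUM159. It ranked 173 of 15142 genes from the highest in MDA-MB-231 and 421 of 15674 from the lowest in SUM159. On the opposite strand CYP1B1-AS1 shares 678 exonic bases with it and had 7, 32, 124 and 32 counts, higher after MBZ in MDA-MB-231 and lower in SUM159 as well. The strand setting of the counting is not given in the sources used here, so reads of the shared bases may belong to either gene.

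**Figure D2:**
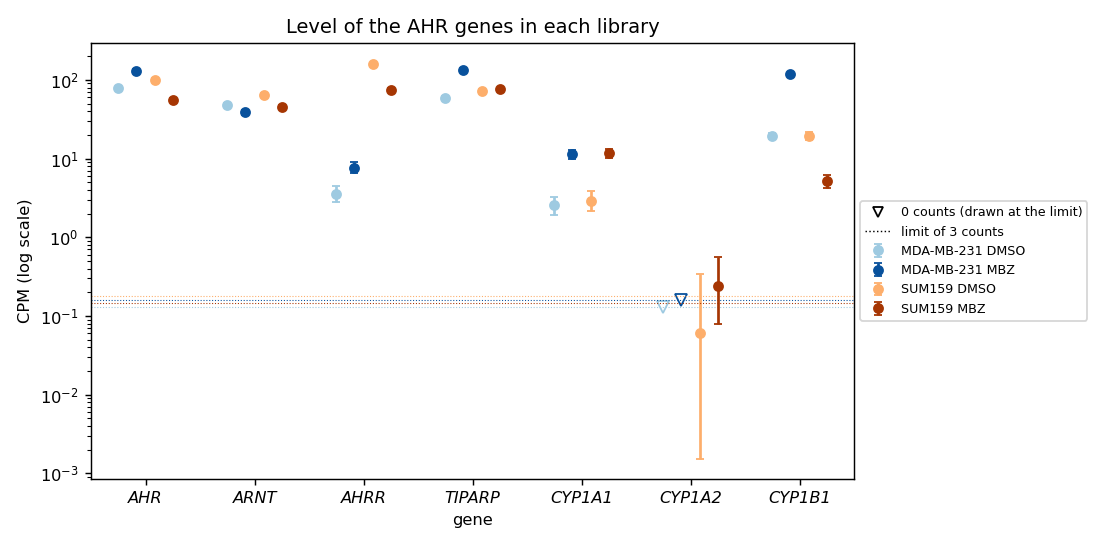
CPM on a log axis (y) of the 7 genes (x) in the 4 libraries, with 95% exact Poisson intervals for counting error as bars. Dotted lines mark the level of 3 counts in each library and open triangles mark 0 counts. AHRR separates the lines, CYP1A1 separates the treatments, and CYP1A2 lies below the level of 3 counts in 3 libraries and above it, at 5 counts, in SUM159 MBZ.

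To compare levels between genes, CPM was divided by the length of the canonical transcript in kb. In MDA-MB-231 DMSO the order was TIPARP (15.4 CPM per kb), AHR (12.5), ARNT (10.2), CYP1B1 (3.74), CYP1A1 (0.975), AHRR (0.631) and CYP1A2 (0.0), and the counting intervals of CYP1A1 and AHRR overlapped. In MDA-MB-231 MBZ CYP1B1 came second at 22.6 CPM per kb, behind TIPARP at 34.8 and with an interval that overlapped that of AHR at 20.9, followed by ARNT (8.23), CYP1A1 (4.37) and AHRR (1.36). In SUM159 DMSO AHRR led at 27.7 CPM per kb, above TIPARP (18.8), AHR (16.0), ARNT (13.7), CYP1B1 (3.71) and CYP1A1 (1.11). In SUM159 MBZ the order was TIPARP (19.7), AHRR (13.1), ARNT (9.58), AHR (8.94), CYP1A1 (4.51) and CYP1B1 (0.985), with overlapping intervals for ARNT and AHR. CYP1B1 thus exceeded CYP1A1 per kb in 3 of the 4 libraries, and the reverse held in SUM159 MBZ.

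The place of AHR in these orders depends on the bases it shares with other genes. Over the 3635 bases of its transcript and the 4544 of CYP1B1 that no other gene in the count table shares, a length chosen after seeing the data, AHR would have 21.5 CPM per kb in MDA-MB-231 DMSO, 35.9 in MDA-MB-231 MBZ, 27.5 in SUM159 DMSO and 15.4 in SUM159 MBZ. These values hold if no read on shared bases was counted for AHR. AHR would then stand above TIPARP in MDA-MB-231 DMSO, and in MDA-MB-231 MBZ as well but with overlapping intervals. In SUM159 DMSO its interval would overlap that of AHRR, and in SUM159 MBZ it would come second, between TIPARP and AHRR. CYP1B1 would have 4.29, 26.0, 4.26 and 1.13 CPM per kb, behind AHR and TIPARP in MDA-MB-231 MBZ and again below CYP1A1 in SUM159 MBZ alone. The overlap of AHRR with PDCD6-AHRR was not taken off, since that gene has no counts here.

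The mix of CYP1 reads followed from these values. CYP1A1 gave 11.5% of the 512 CYP1 counts in MDA-MB-231 DMSO (95% Clopper-Pearson interval 8.89 to 14.6) and 8.78% of 2461 in MDA-MB-231 MBZ (7.69 to 9.96). It gave 13.0% of 370 counts in SUM159 DMSO (9.72 to 16.8) and 68.6% of 353 in SUM159 MBZ (63.4 to 73.4). Summed CYP1 levels were 22.0, 129.5, 22.3 and 17.1 CPM in the 4 libraries. The log2 fold change of the summed counts was 2.54 (2.40 to 2.68) in MDA-MB-231 and -0.38 (-0.60 to -0.17) in SUM159, the latter short of a 1.5-fold difference. Under total counts alone, an alternative chosen for the sum after seeing the data, the SUM159 value was -0.083 with an interval that includes 0 (-0.30 to 0.13). AHRR counts per AHR count were 0.0457 in MDA-MB-231 DMSO and 0.0588 in MDA-MB-231 MBZ, with overlapping intervals (0.0362 to 0.0569 and 0.0494 to 0.0695), and 1.57 and 1.33 in SUM159 DMSO and SUM159 MBZ (1.48 to 1.67 and 1.23 to 1.43).

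**Figure D3:**
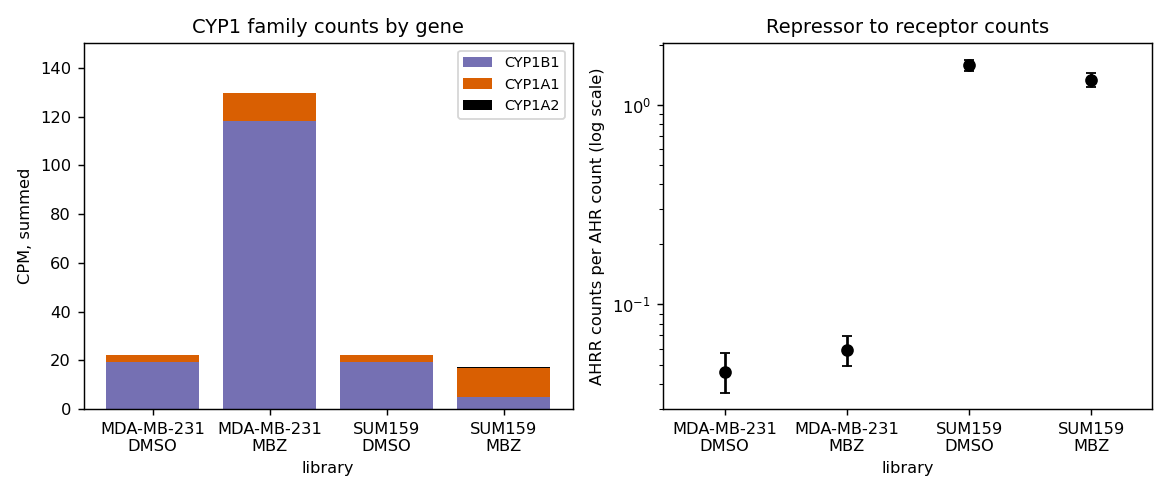
Left, summed CPM of CYP1B1, CYP1A1 and CYP1A2 (y, bars from 0) in the 4 libraries (x). Right, AHRR counts per AHR count on a log axis with 95% counting intervals. CYP1B1 makes up most of the bar in 3 libraries and CYP1A1 in SUM159 MBZ, and the AHRR to AHR ratio is above 1 in both SUM159 libraries.

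A change alike in both lines was tested with edgeR's quasi-likelihood test (cell line and treatment in the model, Benjamini-Hochberg adjustment over 16100 genes). The lines stand in for replicates there, so the spread is the difference in response between lines. CYP1A1 had a shared log2 fold change of 2.12 (SE 0.476), higher in both lines, and did not pass, with an edgeR adjusted p = 0.458 and rank 110 by unadjusted p. With every gene of at least 1 count kept in the same edgeR test its adjusted p was 0.0065, with DESeq2's Wald test 0.094, with RLE normalization 0.313 and with treatment alone in the model 1.00. The other 5 genes tested had log2 values of 0.65 (TIPARP), 0.43 (CYP1B1), -0.38 (ARNT), and -0.02 each for AHR and AHRR, with edgeR adjusted p-values between 0.738 and 0.996. CYP1A2 had too few counts for the test. Over all genes 1 of 16100 passed as higher (0.00621%), IL24 with an edgeR adjusted p = 0.0119, named here after its value was seen, and 0 as lower (0.0%). At an unadjusted p under 0.05 the edgeR counts were 629 higher and 521 lower, and DESeq2 called 44 and 55 after adjustment. With every gene of at least 1 count kept, the setting in which CYP1A1 passed, edgeR called 153 higher and 145 lower of 32295 genes.

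The genes whose profiles over the 4 libraries were nearest to each member were found by Euclidean distance of centred log2 CPM among 11152 genes that averaged 100 counts or more. For CYP1A1 they were BIRC3 (distance 0.358), SEC11C (0.484) and POLR3G (0.543), each higher after MBZ in both lines. BIRC3, an inhibitor of apoptosis, had 359, 1582, 409 and 1616 counts. For CYP1B1 they were RIGI (1.07), IFIT3 (1.09) and SOCS2 (1.21), farther away, the first 2 of which are interferon-induced genes. IFIT3 had 1515, 6072, 1388 and 797 counts, higher after MBZ in MDA-MB-231 and lower in SUM159. For AHR the nearest was ZNF26 (0.0693), for ARNT ZMIZ2 (0.0359), for TIPARP GTDC1 (0.0993) and for AHRR PSG4 (0.297). Among the members themselves AHR and TIPARP were closest (0.733) and AHRR and CYP1B1 farthest apart (6.70), while CYP1A1 and CYP1B1 were at 3.64.

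The xenobiotic response element was searched upstream of the genes on both strands, as its core GCGTG and as the longer form TNGCGTG that contains it. Of the 7 genes, 6 had an entry among the RefSeq promoters (GRCh38.p14), and CYP1B1 had none. AHRR had 2 starts there and TIPARP 3. For each gene the window before the start of its canonical transcript was used, so matches and positions hold for that start only. The 250 bases before the start are shown for the 3 target genes with a core match there. Their levels differed after MBZ, that of TIPARP in MDA-MB-231 but short of a 1.5-fold difference in SUM159. The core is in capitals on either strand (CACGC on the reverse strand):
CYP1A1, chr15:74725529-74725778, minus strand: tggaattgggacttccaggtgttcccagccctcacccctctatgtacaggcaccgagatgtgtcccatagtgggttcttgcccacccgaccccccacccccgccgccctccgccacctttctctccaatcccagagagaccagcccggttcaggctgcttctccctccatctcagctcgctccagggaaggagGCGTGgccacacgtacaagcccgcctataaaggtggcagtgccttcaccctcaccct
AHRR, chr5:321464-321713, plus strand: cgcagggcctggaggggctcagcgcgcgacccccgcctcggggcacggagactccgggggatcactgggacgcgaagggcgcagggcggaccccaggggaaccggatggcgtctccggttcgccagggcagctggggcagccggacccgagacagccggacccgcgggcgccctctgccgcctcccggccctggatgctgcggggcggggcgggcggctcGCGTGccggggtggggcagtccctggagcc
TIPARP, chr3:156674340-156674589, plus strand: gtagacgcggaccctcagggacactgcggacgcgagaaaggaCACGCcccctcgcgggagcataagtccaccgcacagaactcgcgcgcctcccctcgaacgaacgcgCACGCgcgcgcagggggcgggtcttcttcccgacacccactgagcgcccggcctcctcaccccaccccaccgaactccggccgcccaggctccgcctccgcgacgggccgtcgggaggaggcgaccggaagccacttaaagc
CYP1A1 has 1 core match here, with its first base at position -57 from the start, AHRR has 1 at -30 and TIPARP has 2 at -208 and -142. The windows of AHR, ARNT and CYP1A2 have 0. Of all 35116 promoter windows of this length 32.2% hold the core and 4.52% the longer form, so a core match is common.

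Over 2000 bases before the start (hg38), CYP1A1 has 11 core matches and 5 of the longer form. The median over 19823 protein-coding genes is 2 core matches, 84.9% have at least 1, and 0.04% have at least 5 of the longer form, or 8 genes with CYP1A1 among them. TIPARP has 7 core matches, ARNT 6, AHRR 4, CYP1A2 1 and AHR 0. Of the longer form ARNT, called in neither line, has 2, AHRR and TIPARP have 1 each, and CYP1A2 and AHR have 0. At least 2 of the longer form are found for 7.2% of genes and at least 1 for 32.5%. The 300 bases with the most matches of the longer form upstream of CYP1A1 run from -1115 to -816 and hold 4 core matches, 3 of them within the longer form:
CYP1A1 upstream, chr15:74726344-74726643, minus strand: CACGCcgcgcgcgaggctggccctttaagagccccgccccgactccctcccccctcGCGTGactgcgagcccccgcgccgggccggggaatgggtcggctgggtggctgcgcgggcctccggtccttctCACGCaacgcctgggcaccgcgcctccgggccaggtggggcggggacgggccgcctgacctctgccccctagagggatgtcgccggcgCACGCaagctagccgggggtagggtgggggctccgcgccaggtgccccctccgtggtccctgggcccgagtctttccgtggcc
This stretch is shown because CYP1A1 was the one gene of the 7 called higher in both lines. A match is a description of the letters and not evidence of binding in these cells.

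**Figure D4:**
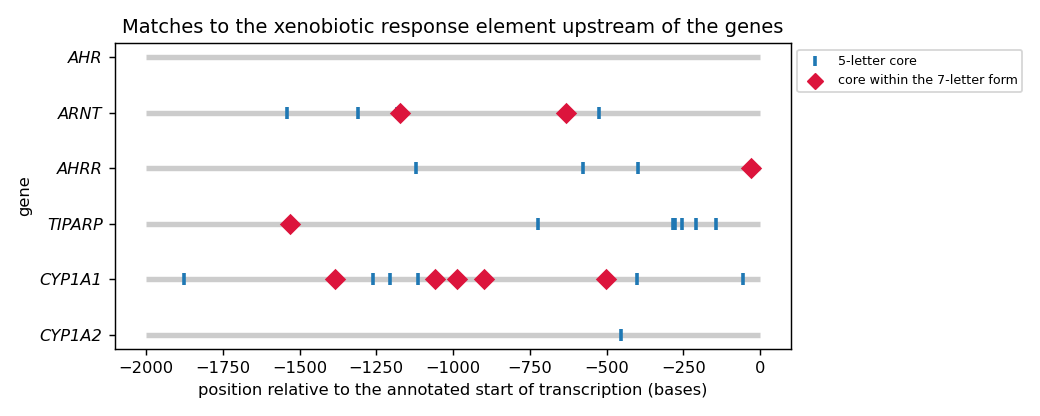
Positions of core matches (blue ticks) and of cores within the longer form (red diamonds) in the 2000 bases before the annotated start (x axis, bases from the start) of 6 genes (y axis). CYP1A1 has 11 matches, most of them between -1385 and -898, CYP1A2 has 1 and AHR 0.

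Beyond the 7 genes, 52 genes of 7 pathway lists were counted, of which 6 were called higher and 6 lower of 42 compared in MDA-MB-231, and 6 higher and 8 lower of 46 compared in SUM159. The shares higher and lower were 14.3% and 14.3% in MDA-MB-231 and 13.0% and 17.4% in SUM159, below the 18.3% and 15.8%, and 21.5% and 21.7%, of all genes, a difference that was not tested. Under total counts alone the share called higher in MDA-MB-231 was above that of all genes, at 31.0% against 29.1%, while the share lower was 7.14% against 7.57%. In SUM159 they were 21.7% higher against 32.8% and 8.70% lower against 12.8%. The counts of single lists, of 2 to 12 genes compared, are descriptions. The chaperone complex that holds AHR without ligand had 0 called higher and 1 lower of 6 in MDA-MB-231 and 0 of 6 in SUM159, with medians of -0.31 and -0.26. With 6 genes these counts cannot be set apart from the shares of all genes. Under total counts alone the call in MDA-MB-231 was lost. HSP90AA1 had log2 fold changes of 0.24 and 0.22 in MDA-MB-231 and SUM159, and HSP90AB1 -0.38 and -0.54. PTGES3, the p23 co-chaperone, had -0.31 and 0.05.

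Of the bHLH-PAS relatives, 1 was called higher and 0 lower of 8 in MDA-MB-231 (median 0.14), and 2 higher and 1 lower of 8 in SUM159 (median -0.06), and 3 were called higher in each line under total counts alone. ARNT2, a paralog of ARNT, went the way of AHR, with 412, 532, 1049 and 428 counts and log2 fold changes of 0.64 (0.45 to 0.83) and -1.61 (-1.78 to -1.45). The clock genes BMAL2 and NPAS2 were higher in SUM159 by log2 1.14 and 1.17, with 0.12 and -0.14 in MDA-MB-231. The hypoxia factor gene HIF1A had 0.16 and -0.38.

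The AHR battery also holds phase II enzymes and NRF2, and none of its members compared was called higher with TMM. Under total counts alone NFE2L2 in MDA-MB-231 (log2 0.82) and NQO1 (0.61) and CYP2S1 (0.85, named after its values were seen) in SUM159 were. In MDA-MB-231 0 were called higher and 1 lower of 4 (median -0.36), and in SUM159 0 higher and 2 lower of 5 (median -0.50). ALDH3A1, an aldehyde dehydrogenase, had 1000, 431, 113 and 1 counts, with log2 fold changes of -0.94 (-1.11 to -0.78) in MDA-MB-231 and -6.95 (-12.5 to -4.63) in SUM159. NQO1, the quinone reductase that NRF2 also controls, had -0.51 and 0.31, and NFE2L2, which encodes NRF2, 0.56 and -0.50. GSTA2 had 0, 0, 39 and 6 counts, with -2.99 (-4.55 to -1.77) in SUM159, a value made uncertain by its close paralog GSTA1. UGT1A1 and UGT1A6, whose genes share exons, had between 0 and 2 counts.

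Among 7 other genes reported to respond to AHR, 4 were called higher in each line, with 0 lower in MDA-MB-231 (median 0.79) and 1 lower in SUM159 (median 3.77). Of all genes compared, 18.3% were called higher and 15.8% lower in MDA-MB-231, and 21.5% and 21.7% in SUM159. With a mean of at least 100 counts asked for, 2 were called higher in each line, EREG with PTGS2 in MDA-MB-231 and EREG with IL1B in SUM159. Fewer than the 7 genes reached that mean: SERPINB2, IL1B and CYP19A1 fell short in MDA-MB-231, and SERPINB2 and PTGS2 in SUM159. PTGS2, the inducible cyclooxygenase, had 68, 590, 8 and 173 counts, and log2 fold changes of 3.39 (3.03 to 3.77) and 4.10 (3.11 to 5.35). SERPINB2, a plasminogen activator inhibitor, had 0 counts in both DMSO libraries and 69 and 65 in the MBZ libraries, at least 27.8-fold higher in MDA-MB-231 and at least 17.4-fold higher in SUM159 against a floor of 3 counts per library. EREG, an EGFR ligand, had 785, 1122, 429 and 7279 counts, with 0.79 and 3.77. IL1B, a cytokine, had 17, 16, 87 and 2183 counts, with 0.18 (-0.90 to 1.26) in MDA-MB-231 and 4.33 (4.02 to 4.66) in SUM159. CYP19A1, the aromatase gene, named here after its values were seen, was called in opposite directions, with 12, 26, 239 and 99 counts and log2 fold changes of 1.38 (0.35 to 2.51) and -1.59 (-1.94 to -1.24). PTGS2 and SERPINB2 did not pass edgeR's shared test (adjusted p = 0.294 and 0.354), but passed DESeq2's Wald test (adjusted p = 3.51e-06 and 0.0044), and over all alternatives their adjusted p ran from 7.06e-10 and 3.72e-08 to 1.00. The lowest of these came with every gene of at least 1 count kept.

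**Figure D5:**
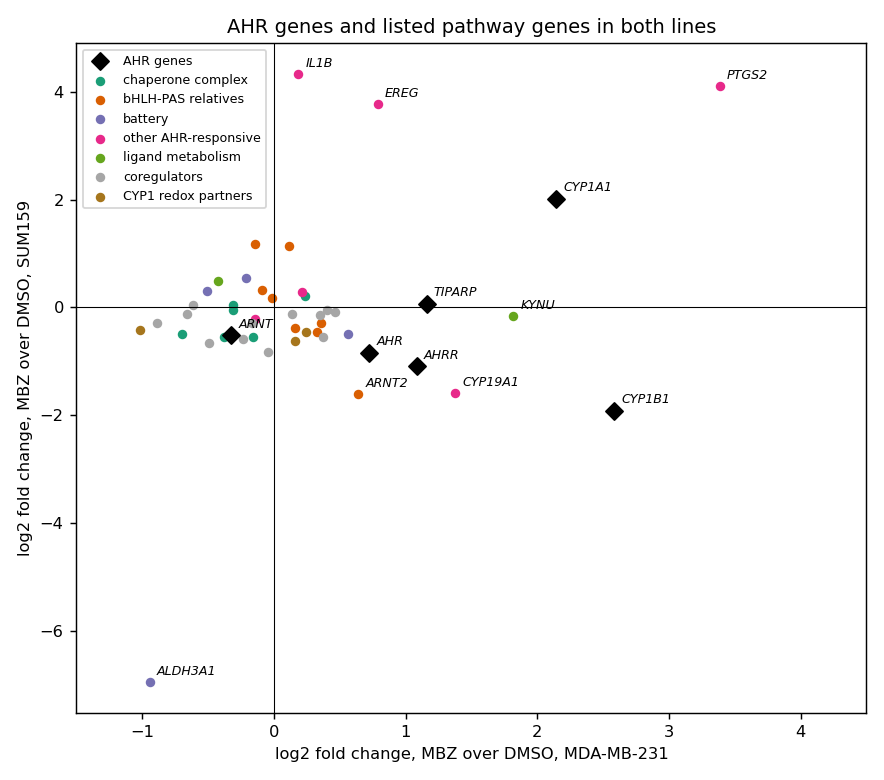
Log2 fold change of MBZ over DMSO in MDA-MB-231 (x) against SUM159 (y), on axes of different scale, for the AHR genes (black diamonds) and the listed pathway genes (colored dots) that averaged 10 counts or more in both lines. Genes with a DMSO count of 0 are not drawn, and names mark the AHR genes and values over 1.4 in size. CYP1A1 lies with PTGS2 in the upper right, and AHR, AHRR and CYP1B1 lie with ARNT2 and CYP19A1 in the lower right.

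Of the genes that make or break down tryptophan-derived AHR ligands, 1 was called higher of 2 compared in MDA-MB-231 and 0 higher and 1 lower of 5 in SUM159. KYNU, which cleaves kynurenine, had 102, 298, 1910 and 2116 counts and log2 fold changes of 1.82 (1.49 to 2.16) and -0.17, the second of which was 0.13 under total counts alone. IL4I1, an amino acid oxidase, had 0, 14, 485 and 353 counts, at least 5.64-fold higher in MDA-MB-231 against 3 counts with a mean under the minimum, and -0.77 in SUM159 (-0.47 and not called under total counts alone). TDO2 had 4, 8, 249 and 279 counts, with -0.15 (-0.40 to 0.10) in SUM159, and AFMID had -0.43 and 0.48, the latter 0.78 and called higher under total counts alone.

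The coregulators had 0 called higher and 3 lower of 12 in MDA-MB-231 (median -0.11) and 0 higher and 2 lower of 12 in SUM159 (median -0.21). This turned under total counts alone to 4 higher and 1 lower in MDA-MB-231 and to 0 in either direction in SUM159, so no direction is given for the list. HDAC4 was lowest in MDA-MB-231 at -0.88, with -0.29 in SUM159. The coactivator NCOA2 had -0.05 and -0.84. HDAC5 had -0.50 and -0.66. The NCOA2 and HDAC5 calls in SUM159 were lost under total counts alone (-0.54 and -0.36). Of the 3 redox partners of CYP1 enzymes, POR, which passes electrons to P450 enzymes, had 0.24 and -0.47. CYB5A had 0.16 and -0.62, the latter -0.32 and not called under total counts alone, and CYB5R3 had -1.02 and -0.42.

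The labels were checked against cell type markers. VIM and CD44, markers of mesenchymal TNBC lines, were abundant, VIM at 2033, 1089, 3285 and 2023 CPM, with log2 fold changes of -0.92 and -0.70, and CD44 at 390.2, 391.1, 1222 and 900.3 CPM, with -0.01 and -0.44, not called in either line. PGR had 0 counts throughout and ESR1 1, 0, 2 and 18, while ERBB2 had 85.9, 71.2, 110.2 and 59.0 CPM. In SUM159 ESR1 was called higher, at 2.79 (0.79 to 6.01), and ERBB2 lower, at -0.90 (-1.01 to -0.80). In MDA-MB-231 ERBB2 had -0.29 and was not called, and ESR1 was under the minimum. Of 4 epithelial and luminal markers, which summed to 14.03, 20.3, 21.4 and 8.29 CPM, GATA3 was the most abundant in SUM159, and CDH1 had 11, 12, 0 and 0 counts. GATA3 had 171, 179, 302 and 121 counts, with log2 fold changes of 0.34 (0.03 to 0.65) and -1.63 (-1.95 to -1.33), opposite in sign as for AHR, AHRR and CYP1B1. In MDA-MB-231 it was not called, and its interval with DESeq2 size factors included 0 (-0.02 to 0.60). Under total counts alone it was past a 1.5-fold difference there, at 0.604 (0.29 to 0.92), with -1.33 in SUM159. EPCAM had 144, 190, 6 and 9 counts, with 0.67 (0.35 to 1.00) in MDA-MB-231, where it was called higher, and 0.26 (-1.38 to 2.04) in SUM159. FOXA1 had 0, 5, 46 and 41 counts, with -0.48 (-1.13 to 0.16) in SUM159, and its mean in MDA-MB-231 was under the minimum. Hepatocyte markers summed to at most 1.76 CPM, led by APOA1, with ALB at 0, 2, 1 and 1 counts. APOA1 had 41, 15, 2 and 8 counts and was called lower in MDA-MB-231, at -1.17 (-2.14 to -0.29). In SUM159 its mean was under the minimum. Leukocyte markers summed to 0.344, 1.37, 13.3 and 3.39 CPM, nearly all of it PTPRC. PTPRC had 8, 23, 216 and 60 counts, with log2 fold changes of 1.78 (0.58 to 3.17) and -2.16 (-2.60 to -1.75), opposite in sign as well. Such opposite signs, with both intervals clear of 0, were seen in 20.0% of the 13733 genes compared in both lines. CD3E had 0, 0, 0 and 1 counts and LST1 0, 3, 4 and 9, so LST1, with a mean under the minimum, was not lower after MBZ in SUM159. Any link of GATA3 or PTPRC to the values of the AHR genes was not tested. In bulk RNA fewer cells expressing a gene and less of its RNA per cell cannot be told apart. Fibroblast markers summed to 11.2, 7.47, 101.6 and 53.3 CPM, led by COL1A1, which was called lower in both lines (-0.87 and -1.51), with DCN at 0, 0, 335 and 508 counts. COL1A2 had 13, 30, 5 and 5 counts and was called higher in MDA-MB-231, at 1.47 (0.50 to 2.54). Endothelial markers summed to 16.1, 18.3, 40.8 and 41.3 CPM, led by PECAM1, with CDH5 at 0, 0, 1 and 6 counts. VWF had 10, 19, 20 and 21 counts. It was called higher in MDA-MB-231, at 1.19 (0.02 to 2.47), and had -0.24 (-1.20 to 0.71) in SUM159.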

How the data were processed

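RNA of the 4 libraries was sequenced as poly(A)-selected, 150-bp paired reads. The authors aligned them to GRCh38 using STAR 2.5, made counts for each Ensembl gene using HTSeq 0.6.1 (union mode), per the submitters' notes and the study's methods, and deposited whole-number counts without normalization. The annotation release and strand setting are not given in the sources used here. Symbols were matched for 58207 of 58735 genes, and coordinates and overlaps are those of GENCODE 44.

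Log2 fold changes used edgeR 4.0.16 TMM factors within the 2 libraries of a line and a prior count of 0.125. With a library at 0 counts, the fold is a bound against 3 counts. The shared test used edgeR's quasi-likelihood fit with filterByExpr. Its functions were run on simulated data with a smaller spread than that of the fit here (common biological coefficient of variation 0.3229). The simulation thus does not check the test at this spread. DESeq2 1.42.0 gave alternatives, as did other scalings, thresholds, filters and a prior count of 2. The members and lists were chosen with earlier results of these data known. Of each list up to 4 genes past the fold threshold, or else with the highest mean counts, were taken, and some of these are not reported here. The 3 genes nearest in profile were taken as well. Sequences came from RefSeq (GRCh38.p14) and hg38.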

Additional observations from a re-analysis of the deposited data

Results flagged for a closer look

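Of 34 genes looked at, the 7 AHR genes and 27 genes taken from the pathway lists, 11 had log2 fold changes of opposite sign in the 2 lines with counting intervals clear of 0 in both. Of all genes that averaged 10 counts or more in both lines, 20.0% did the same, and so did 13 of the 42 listed genes compared in both lines. The 27 genes were taken in part for passing the fold threshold, and some of the 34 lacked a fold change in at least 1 line. The 11 of 34 is thus not comparable with these shares. With 1 library per group, the difference between the lines was not tested for any of them. Differences are the log2 fold change in SUM159 minus that in MDA-MB-231. Of the AHR genes, CYP1B1 differed by -4.49, AHRR by -2.17 and AHR by -1.56. Of the listed genes, ARNT2 differed by -2.25, KYNU by -1.99, NFE2L2 by -1.06, POR by -0.71 and HIF1A by -0.54, each with the higher value in MDA-MB-231. NPAS2 differed by 1.31, AFMID by 0.91 and NQO1 by 0.82, each with the higher value in SUM159. Under total counts alone, chosen here after seeing the data, NPAS2 in MDA-MB-231 (0.12) and KYNU in SUM159 (0.13) changed sign, and the interval of AFMID in MDA-MB-231 (-0.16, from -0.34 to 0.02) included 0, so that these 3 genes no longer met the description, and 19.1% of all genes did. Outside the 34, 5 more listed genes had opposite signs in the same way, named after their values were seen. CYP19A1 differed by -2.96, more than any listed gene above, CREBBP by -0.91, BMAL1 by -0.78, CLOCK by -0.65 and NCOA3 by -0.49. BMAL1, CLOCK and NCOA3 no longer met the description under total counts alone, but other listed genes, PTGES3, SMARCA4, NCOA2 and CYB5A among them, came to meet it, so that 12 of the 42 did, and 15 with DESeq2 size factors.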

How the results depend on the processing

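The 13 log2 fold changes of AHR genes stayed inside their counting intervals with TMM over the 4 libraries, DESeq2 size factors and a prior count of 2, and none of those called changed sign under any scaling. Under total counts alone 8 left their intervals: in MDA-MB-231 AHR 0.99, ARNT -0.056, TIPARP 1.43 and CYP1B1 2.85, and in SUM159 AHR -0.54, ARNT -0.21, AHRR -0.78 and TIPARP 0.37. This scaling divides by totals without a composition factor, and it left 2 AHR genes called lower in SUM159 in place of 3. At least 1 count in the line, in place of a mean of 10, gave 2 called higher in SUM159 in place of 1, by adding CYP1A2. At a fold of 2 the receptor gene AHR lost its call in both lines.

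In the shared test CYP1A1 passed when every gene with at least 1 count was kept (log2 2.09, adjusted p = 0.0065 in edgeR, with 0.094 to 1.00 under the other alternatives), where 153 genes were called higher and 145 lower. Also called there were PTGS2 (3.69, adjusted p = 7.06e-10), SERPINB2 (9.09, 3.72e-08), EREG (2.29, 1.12e-05) and IL1B (2.73, 2.02e-05) as higher, and ALDH3A1 (-2.63, 2.70e-05) as lower. The cause was not tested. With treatment alone in the model AHR was 0.083, NQO1 0.081, NFE2L2 -0.030, TDO2 -0.084, IL4I1 -0.67 and AFMID -0.0065, and with DESeq2 NFE2L2 was -0.0010 and AFMID -0.0053, all with a sign opposite to the main value and adjusted p of 1.00.

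CPM by total counts left the counting interval in 16 of 25 values: AHR 73.0, 144.9, 88.4 and 60.9, ARNT 44.7, 42.99, 56.9 and 49.2, TIPARP 55.5, 149.0, 64.1 and 83.0 (MDA-MB-231 DMSO and MBZ, SUM159 DMSO and MBZ), AHRR 139.0 and 80.7 in SUM159 DMSO and MBZ, and CYP1B1 131.0 in MDA-MB-231 MBZ and 17.2 in SUM159 DMSO. Among all genes, calls higher and lower numbered 1370 and 779 in MDA-MB-231 and 1996 and 1676 in SUM159 at a fold of 2, 4408 and 1146, and 5135 and 2004 by total counts, and 9089 and 5693, and 11750 and 6844 with at least 1 count. With an average of 100 counts or more, 1114 and 1422 were higher in MDA-MB-231 and SUM159 and 2250 were lower in SUM159. Of 14 counts of listed genes called higher and 14 called lower, 5 and 5 moved by over 1.5 times by total counts, 1 and 6 at a fold of 2, 2 and 1 with an average of 100 counts, and 3 and 1 with at least 1 count. At a fold of 2 the coregulators called lower went from 3 to 0 in MDA-MB-231 and from 2 to 0 in SUM159. With at least 1 count the ligand genes called higher in MDA-MB-231 went from 1 to 5, while calls higher over all genes went from 2765 to 9089. Among the added ligand genes, IDO1 and IDO2 had 0 counts in MDA-MB-231 DMSO and 1 in MDA-MB-231 MBZ, too few for a fold change to be given. TDO2 had 4 and 8 counts, with an interval that includes 0 (-0.63 to 3.45).

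The shared test compares MBZ with DMSO within each line, and within a line no test was possible. The spread between cultures is unknown, CYP1A2 lies at the limit of depth, and the counting intervals of CYP1A1, with 48 to 242 counts, are the widest of the 6 AHR genes compared in each line.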
